A study of Ovis aries with 23 samples.

Results

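The comparison described here sets infarcted ventricular muscle of fetal sheep against remote muscle of fetal sheep, 3 days after a coronary artery was tied. Its members are the 3 arrays titled fetal infarct 1 to 3 and the 3 titled fetal remote 1 to 3, 6 of the 23 arrays of the series. The fetuses were at 105 days of gestation at surgery, when the second diagonal branch of the left anterior descending artery was ligated. The infarct samples came from the infarct area and the remote samples from ventricle away from it, so all 6 arrays carry the ligation and the 3 days. The labels name no transgene or drug. The series also holds fetal border zone and fetal sham arrays (3 each), and arrays of adolescent sheep aged 6 months from the same 3 zones after the same ligation (3 each) and from sham animals (2). The labels number the replicates 1 to 3 but do not say whether infarct 1 and remote 1 came from 1 fetus. The p-values treat the arrays as unpaired samples. They rest on the spread within groups over all 23 arrays in 1 model, not on these 6 arrays alone.

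Each array is a single-colour Agilent slide position with 15008 sheep probes, of which 1772 could be given 1 gene name. Values are log2 signal minus the array's own 75th percentile, so 0 marks a bright probe and 1 unit is a doubling. Between 71.5% and 81.6% of probes were well above background on the 6 arrays, and the 75th percentile of signal ran from 487 to 865 units. Their number limits the precision of every value. Fetal remote 1 stood farthest from its group mean, with a root mean square deviation of 0.591 log2 over the tested probes. Infarct and remote arrays each kept 1 position on every slide, so slide position and tissue zone cannot be told apart.

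When a coronary artery is blocked the muscle it feeds dies, and white cells enter to clear the debris. Monocytes and macrophages release interleukins, digest dead cells in lysosomes and cut the matrix, and fibroblasts then lay down collagen. Surviving heart muscle depends on mitochondria, on fatty acids after birth and more on glucose and lactate before birth. Fetal heart muscle cells can still divide, a capacity that is largely lost in older animals.

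The array reads each gene through short designed probes. The ones below are shown because the results turn on the genes they read, 3 that were higher in the infarct and 3 of the muscle genes. Each runs 60 bases and has at least 1 reading frame without a stop codon. No base is singled out, so all letters are lower case.
CD14: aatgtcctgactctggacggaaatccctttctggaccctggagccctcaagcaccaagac
CTSS: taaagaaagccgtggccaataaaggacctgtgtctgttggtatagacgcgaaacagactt
LGALS1: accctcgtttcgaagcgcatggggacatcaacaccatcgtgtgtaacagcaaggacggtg
ENO3: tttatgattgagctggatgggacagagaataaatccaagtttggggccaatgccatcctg
SLC25A4: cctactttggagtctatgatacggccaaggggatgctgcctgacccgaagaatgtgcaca
MYH7: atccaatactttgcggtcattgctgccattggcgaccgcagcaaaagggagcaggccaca

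At 3 days the fetal infarct held more RNA than remote muscle of 9 of 13 cytokine genes, 11 of 12 macrophage markers, 5 of 14 matrix genes and 7 of 12 cell division genes. It held less of 6 of 9 genes of oxidative phosphorylation and of single genes of glucose and fat use, among them SLC2A4, ENO3 and CPT1B. CPT1B kept its call with any 1 fetal array left out, while SLC2A4 and ENO3 lost theirs in most such fits. The filter needed 2 arrays well above background in any 1 group, so genes not measured in remote muscle could enter these lists. IL6, IL15, TNFSF13B and ITGAM were above background on 3 infarct and 0 remote arrays. The lists were also chosen with earlier results of these data known. Of 12451 probes tested, 1193 were higher in the infarct (9.58%) and 978 lower (7.85%) at an adjusted p under 0.05 by limma with Benjamini-Hochberg adjustment. Among the 904 named genes, each read by its brightest tested probe, 139 rose (15.4%) and 57 fell (6.31%), 196 in all (21.7%), and the median difference was 0.01. The rises were the larger: the median called rise was 1.55 log2 and the median called fall was -1.16. A difference of at least 2-fold was called for 111 named genes that were higher and 34 that were lower. The number of probes called fell to 729 without fetal infarct 3 and to 1170 without fetal remote 3. With normexp background correction in the model of all 23 arrays it was 140, of which 126 were higher, and 23 of the 196 named genes were still called. With normexp the calls were 6 of 12 in the macrophage list described below and 6 of 14 in the phagosome and lysosome list. They were 1 of 13 in the cytokine list and 1 of 12 in the cell cycle list. The lists of innate sensing, oxidative phosphorylation, glucose genes and fatty acid genes held 0. In the fit of the 6 arrays alone with normexp, 147 of the 196 were still called.

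IL6, the interleukin that drives the acute phase response, rose from below background. It read -0.09, -1.11 and -0.30 on infarct arrays 1 to 3 and -7.04, -7.23 and -7.53 on the remote arrays, where it was not well above background on any. Its rise (adjusted p = 0.00178, limma) is therefore given as at least 29.7-fold, set against the lowest signal that was well above background on each remote array. SLC2A5, a fructose transporter, was likewise not above background in remote muscle. It read 0.29, -0.91 and -0.03 in the infarct, at least 33.8-fold higher (adjusted p = 0.0029, limma).

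SLC11A1, a metal ion pump of the macrophage phagosome, was measured on all 6 arrays. It stood at 1.73, 1.87 and 2.61 in the infarct against -2.64, -2.93 and -4.00 in remote muscle, a 38.3-fold difference (5.26 ± 1.11 log2, adjusted p = 0.00558, limma). PLAUR, the receptor that holds urokinase on the cell surface, read 1.00, 0.39 and 1.02 against -2.60, -4.04 and -4.87, or 24.9-fold. S100A4, a calcium-binding protein of migrating cells, read 5.07, 3.86 and 5.49 against 1.11, 0.95 and -0.24, or 18.4-fold. In all 3 genes the lowest infarct array lay above the highest remote array. Over all 904 named genes the infarct arrays lay wholly above the remote arrays in 24.4% and wholly below them in 13.4%, which is the background for each such statement here. CLEC6A, a C-type lectin that senses fungal sugars, rose 18.2-fold with 2 remote arrays above background, and PCSK1, a prohormone protease, rose at least 5.93-fold. LOC443321, named as a lysozyme on the array, rose 14.3-fold, from -3.59, -3.26 and -3.88 in remote muscle to -1.66, 0.11 and 2.34 in the infarct. That spread made its call fragile: its adjusted p of 0.0352 became 0.185 without infarct 3, 0.097 without remote 3, 0.076 without remote 1, 0.0684 without infarct 2 and 0.0656 without remote 2.

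**Figure D1:**
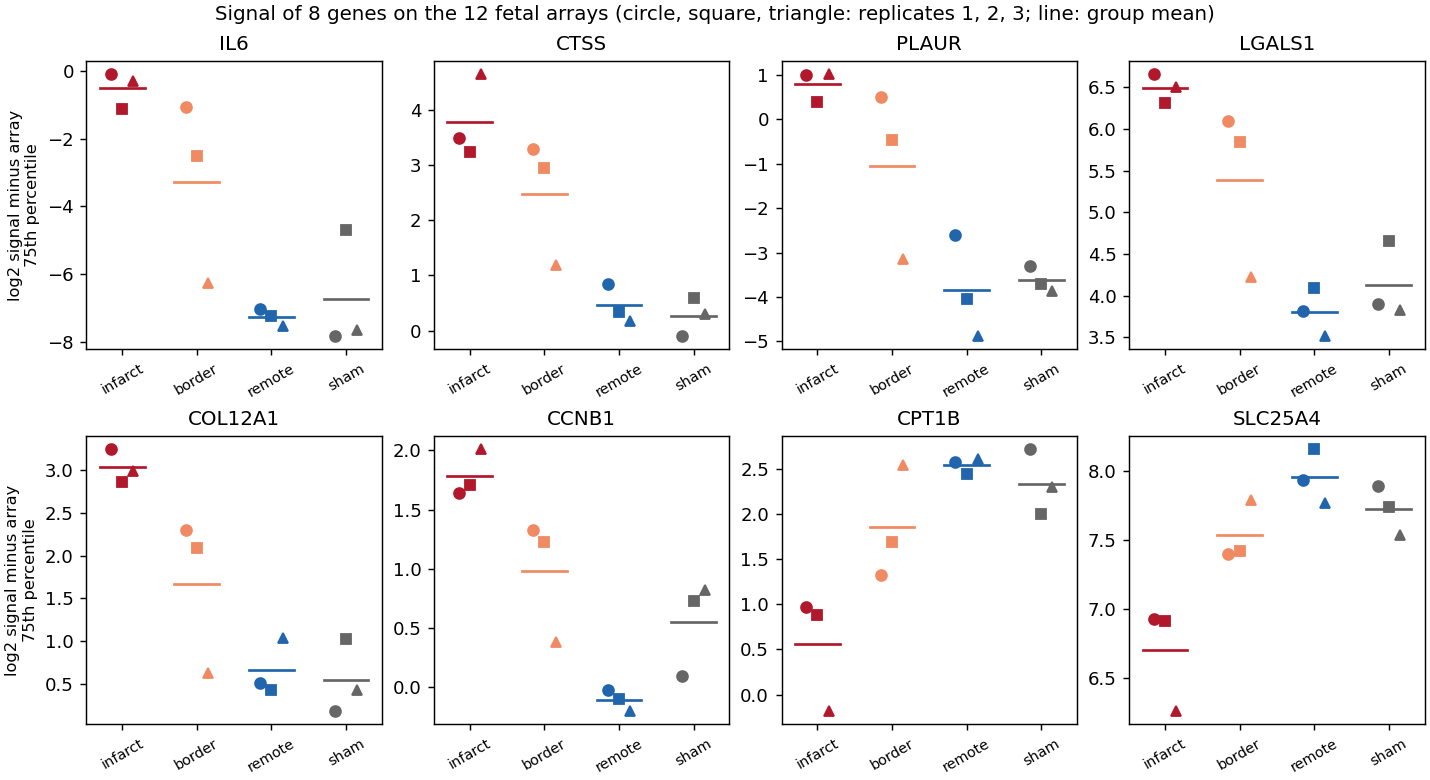
Log2 signal minus the array's 75th percentile for 8 genes (vertical axes) on the 12 fetal arrays in 4 groups, with circle, square and triangle for replicates 1 to 3 and a line at each group mean. In each of the 8 genes the 3 infarct arrays do not overlap the 3 remote arrays, and border 3 lies nearer to the remote arrays than border 1 and border 2 do.

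Of the 13 cytokine genes tested, 9 rose, none fell and 4 did not pass the test, with a list median of 2.19 log2 against 0.01 over all named genes. IL1A, an early alarm signal of injured cells, read 0.84, 0.75 and 0.11 in the infarct and -2.86, -4.03 and -3.80 in remote muscle, 17.5-fold higher (4.13 ± 0.55 log2, adjusted p = 0.00175, limma). Its natural blocker IL1RN rose 11.8-fold (adjusted p = 0.0193) with 1 remote array above background, IL1B rose 4.32-fold (adjusted p = 0.0118) and IL18 rose 4.55-fold (adjusted p = 0.00241). Of the 3 IL18 probes, 2 were called higher and the other was lower at -0.96. TNF, a master inflammatory signal, read -1.53, -2.13 and -0.96 against -3.56, -4.78 and -4.48, and IL10, which restrains inflammation, read -2.24, -2.05 and -1.33 against -4.78, -4.76 and -4.48. The infarct and remote arrays did not overlap in either gene, and the 2 rises were close in size, at 6.64-fold and 6.98-fold (both adjusted p = 0.0029, limma). IL15 and TNFSF13B, not above background in remote muscle, rose at least 1.58-fold and 1.81-fold. With 1 fetal array left out, the call of IL15 held only without remote 2. The call of TNFSF13B ended without infarct 3, remote 1 or remote 3. MIF, IL12A, IL12B and IFNG were not called, though MIF was with the replicate number as a block.

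Leaving out remote 3 gave the fewest called cytokines, 5 of 13. The call of IL1RN rested on several arrays, with an adjusted p of 0.0872 without infarct 3, 0.0864 without remote 2, 0.0559 without remote 3 and 0.0507 without infarct 1. IL1B passed to 0.0502 without remote 2 and 0.0509 without remote 3. Of 5 chemokines tested, CXCL8, which draws neutrophils, was the only one called. It read 1.48, -1.43 and -0.34 against -3.34, -4.21 and -4.77, a 16.1-fold rise (4.01 ± 0.93 log2, adjusted p = 0.00884, limma). CXCL10 was at -1.13 log2 and CXCL1 at -0.10, neither past the test.

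Markers of macrophages and monocytes had a list median of 3.03 log2. Of 12 tested, 11 rose and none fell, and 9 to 11 were called when any 1 fetal array was left out. CD14, the receptor for bacterial lipopolysaccharide on monocytes, read -0.28, -0.31 and 0.37 in the infarct and -2.59, -3.13 and -3.37 in remote muscle (7.76-fold, adjusted p = 0.00256, limma). FCER1G, the signalling chain of Fc receptors, rose 7.87-fold and FCGR2B, an inhibitory Fc receptor, rose 10.8-fold with only 1 remote array above background. TYROBP, an adaptor of myeloid receptors, was at 0.16 log2 and was not called, with infarct values of -0.27, -0.51 and -0.73 inside the remote range. Summed over the list, the scaled linear signal was 52.8 to 105 on the infarct arrays and 7.57 to 9.7 on the remote arrays. In bulk tissue, more cells of a type and more RNA in each of them cannot be told apart, and the same holds for fewer cells and less RNA.

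The phagosome and lysosome list rose with them, sharing LYZ, CTSS, LGMN, SLC11A1 and CYBB with the macrophage list. Of 14 tested, 10 rose and none fell. CTSS, a lysosomal protease of antigen-presenting cells, read 3.48, 3.23 and 4.64 in the infarct and 0.85, 0.34 and 0.18 in remote muscle, a rise of 3.33 ± 0.59 log2 (SE, adjusted p = 0.00279, limma). LGMN, the asparagine-cutting protease legumain, read 4.45, 4.58 and 5.32 against 1.92, 2.13 and 1.86 (7.02-fold), and LIPA, which splits cholesterol esters, read 0.32, 0.00 and 1.68 against -1.67, -2.08 and -2.07 (6.09-fold). The infarct arrays lay above every remote array in all 3, and infarct 3 was the highest each time. CTSB rose 5.66-fold and PSAP 3.51-fold, although the other PSAP probe was at -0.23. Without infarct 3 the list count fell to 6 of 14.

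Among innate sensing genes 10 of 17 rose and none fell, with a median of 1.52. TLR2, the receptor for bacterial lipopeptides, rose 10.5-fold (-1.09, -1.79 and -0.46 against -3.51, -4.96 and -5.08, adjusted p = 0.00712, limma), and its partner TLR6 rose 2.84-fold. IRAK4, the kinase below these receptors, rose 2.21-fold. PTGS2, the inducible enzyme of prostaglandin synthesis, rose 4.61-fold, with infarct values of -0.96, -2.16 and -1.48 against -3.45, -3.96 and -3.80, while its other tested probe was at -0.34 and was not called. The count was 5 of 17 without infarct 3 and also without remote 3, and 6 without remote 2. Of 15 adhesion genes 4 rose and none fell. ITGB2, the beta chain shared by several white cell integrins, rose by 3.46 log2. ITGAM, its partner on monocytes and neutrophils, was not above background in remote muscle and rose at least 4.62-fold, and ITGAV rose 3.74-fold. The white cell integrins ITGAL (0.73 log2) and ITGA4 (-0.06) were not called. ICAM1 (2.61-fold) lost its call without infarct 3 (adjusted p = 0.138), remote 3 (0.0977) or remote 2 (0.0898).

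Few genes of other white cells were tested, and nothing is read from their counts. Of all 904 named genes 15.4% were called higher and 6.31% lower, which is the background for the counts here. Of 3 neutrophil genes tested (CATHL3, LTF and MMP9) none passed, and of 8 T and NK cell genes 2 rose, CD247 and IL2RA. CD247 passed to 0.0727 without infarct 3, 0.0573 without infarct 2, 0.0564 without remote 3 and 0.0501 without remote 2. IL2RA passed to 0.189 without infarct 3, 0.183 without remote 3, 0.126 without remote 2, 0.0671 without infarct 2 and 0.0592 without infarct 1, and to 0.0526 with the replicate number as a block. Of 4 erythroid genes none passed, and their summed signal was 54.5 to 136 on the infarct arrays and 120 to 169 on the remote arrays. None of 7 endothelial genes was called, with PECAM1 at -0.31, KDR at -0.70 and FLT1 at -0.81 log2, where other FLT1 probes ran from -1.44 to -0.32. The lists of 17 angiogenesis genes and 8 hypoxia genes also held no call. With the replicate number as a block NRP1 was called lower, and without infarct 1 EPAS1 and VEGFA, which are in both lists, were called lower. Quantile normalization gave 2 lower calls among the angiogenesis genes and 1 among the hypoxia genes. VEGFA, the main vessel growth factor, read 2.26, 1.28 and -0.60 against 2.57, 1.79 and 2.07 (adjusted p = 0.147, limma), and infarct 3 lay farthest below the remote arrays. HIF1A was at 0.67 log2 (adjusted p = 0.198) and SLC2A1, the basal glucose transporter, at 0.82 (adjusted p = 0.364).

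**Figure D2:**
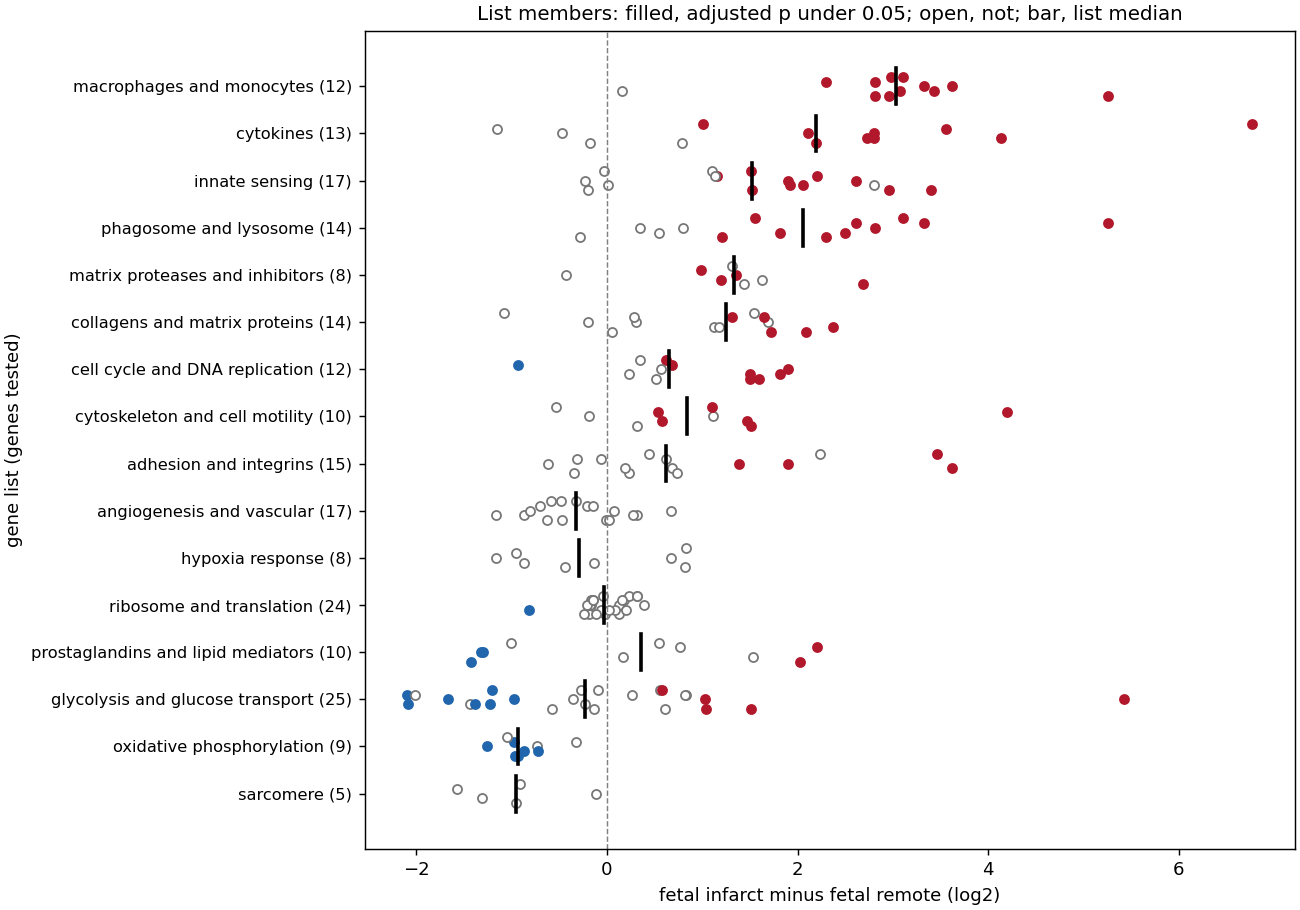
Fetal infarct minus fetal remote in log2 (horizontal axis) for the tested members of 16 gene lists (vertical axis, number tested in brackets), filled where the adjusted p was under 0.05 and open where not, with a bar at each list median. The macrophage list has its median at 3.03 with 11 of 12 filled, the ribosome list gathers around -0.03 with 1 of 24 filled, and the oxidative phosphorylation list lies wholly below 0.

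Matrix genes rose in part. Of 14 collagens and matrix proteins, 5 rose and none fell, with a median of 1.25. COL12A1, a collagen of fibril surfaces, read 3.24, 2.86 and 2.99 in the infarct and 0.51, 0.43 and 1.04 in remote muscle (5.16-fold, adjusted p = 0.00261, limma). BGN, the small proteoglycan biglycan, read 2.60, 2.66 and 3.21 against 0.78, 0.70 and 0.73 (4.25-fold, adjusted p = 0.00241), and COL5A2 rose 3.29-fold. The groups did not overlap in these genes. COL1A1, the main scar collagen, read 2.01, 1.40 and 1.07 against -0.18, -0.11 and -0.19 and rose 3.14-fold (adjusted p = 0.0295), but the adjusted p was 0.0992 without infarct 1, 0.0777 without remote 3, 0.0662 without remote 1, 0.063 without remote 2, 0.0588 without infarct 3 and 0.0565 without infarct 2. FBLN1 rose 2.48-fold and lost its call without infarct 3 (0.156), remote 3 (0.125) or remote 2 (0.0782). COL3A1 was at 1.12 log2 and was not called (adjusted p = 0.263).

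Of 8 matrix proteases and inhibitors, 4 rose and none fell. TIMP1, an inhibitor of matrix metalloproteinases, read 7.81, 7.57 and 7.31 against 4.63, 5.94 and 4.06 (6.44-fold, adjusted p = 0.0104, limma), passing to 0.052 without remote 3. MMP14, a protease anchored in the membrane, rose 2.55-fold by its brightest probe, with 2 of its 4 probes called, MMP2, which MMP14 activates, rose 1.99-fold, and TIMP2, which takes part in that step, rose 2.29-fold. MMP2 was at 0.0616 without infarct 3. LGALS1, the lectin galectin-1, read 6.66, 6.31 and 6.50 against 3.82, 4.09 and 3.52, a 6.39-fold rise (adjusted p = 0.00241) with the groups far apart. Among cytoskeletal genes 6 of 10 rose and none fell, among them ANXA2 (2.78-fold) and ACTG1 (2.85-fold). VIM, the filament of mesenchymal cells, rose 2.15-fold (adjusted p = 0.0173), passing to 0.0612 without remote 3 and 0.0605 without infarct 1. Of 7 fibroblast markers 4 rose. The count was 1 without remote 3, and 2 without infarct 1, infarct 3 or remote 2.

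Among growth factors and their controls the calls were few. FST, the activin antagonist follistatin, read -0.40, 0.78 and 0.72 in the infarct and -2.30, -3.08 and -2.34 in remote muscle, a 7.69-fold rise (2.94 ± 0.57 log2, adjusted p = 0.00387, limma). It was 1 of 2 genes of the TGF-beta superfamily that rose, of 26 tested. TGFB2, the other, rose 2.30-fold (adjusted p = 0.0343) and had a highest adjusted p of 0.116 with 1 array left out, and its call held only without remote 2. GDF9, the oocyte growth factor, fell 1.76-fold and passed to 0.0878 without remote 3, 0.0636 without infarct 3 and 0.0612 without infarct 1. TGFB1 itself was at 0.37 log2 and was not called (adjusted p = 0.393). FZD2, a Wnt receptor, rose 3.44-fold and was the called gene of 9 in the Wnt, Notch and Hedgehog list, where the replicate block added WNT5A as lower. In the insulin-like growth factor system 3 of 13 genes rose, a share close to the 15.4% of all named genes, and nothing is read from that count. They were the binding proteins IGFBP6 (1.93-fold), IGFBP4 (1.82-fold) and IGFBP3 (2.53-fold), and INSR, the insulin receptor, fell 2.24-fold. Without infarct 3 the adjusted p was 0.0601 for IGFBP6, 0.0753 for IGFBP4 and 0.0887 for IGFBP3. IGFBP4 was also at 0.0925 without remote 1, 0.0802 without infarct 1 and 0.065 without remote 3. IGFBP3 was also at 0.137 without remote 2, 0.121 without infarct 1 and 0.102 without remote 3, and INSR was at 0.0621 without remote 1. IGF2, a fetal growth factor, was at -0.09 and IGF1 at 0.90, neither called.

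Cell division genes were mostly, but not all, higher in the infarct. Of 12 tested, 7 rose, 1 fell and 4 did not pass, with a median of 0.65. CCNB1, the cyclin of mitotic entry, read 1.64, 1.71 and 2.01 in the infarct and -0.02, -0.10 and -0.20 in remote muscle (3.73-fold, 1.90 ± 0.37 log2, adjusted p = 0.00383, limma). CDK1, the kinase it drives, read 0.50, 0.51 and 0.47 against -0.86, -0.88 and -1.29 (2.84-fold, adjusted p = 0.0101), and TYMS, which makes thymidylate for DNA, rose 3.52-fold. The groups were well separated in all 3. AURKA rose 3.04-fold and CCNA2 2.83-fold, with adjusted p values of 0.0588 and 0.0719 without infarct 3, and of 0.051 and 0.0563 without remote 3. CCNA2 was also at 0.0532 without infarct 2. PCNA, the DNA polymerase clamp, was at 0.51 log2 and was not called (adjusted p = 0.201). CCND2, a cyclin of the G1 phase, was the gene that fell (1.91-fold, adjusted p = 0.0235), and its call ended without infarct 3 and without remote 2. Without infarct 3, 3 of the 12 genes were called higher, and without remote 3, 4 were. Against fetal sham, given below for CDK1 and CCNA2 only, neither gene was called. The arrays do not show which cells divide.

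Of 9 genes of oxidative phosphorylation, 6 fell, none rose and all 9 lay below 0, with a median of -0.93. SLC25A4, the heart's ADP/ATP carrier, read 6.93, 6.91 and 6.26 in the infarct and 7.94, 8.16 and 7.77 in remote muscle, a 2.39-fold fall (adjusted p = 0.0156, limma). ATP5MC1, a subunit of the ATP synthase ring, read 7.23, 7.18 and 6.68 against 7.90, 8.11 and 8.00 (1.96-fold lower, adjusted p = 0.00644). ATP5PO, NDUFA12 and NDUFA2 fell 1.97-fold, 1.91-fold and 1.65-fold. These falls are modest, the arrays do not overlap, and infarct 3 was the lowest in each. Without infarct 3 only 1 of the 9 was called, and the adjusted p was 0.0891 for SLC25A4, 0.0715 for ATP5PO, 0.0641 for NDUFA12 and 0.0967 for NDUFA2. SLC25A4 was also at 0.0529 without remote 2, and NDUFA2 at 0.0794 without remote 3 and 0.053 without remote 2.

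In fat metabolism CPT1B, the muscle gate for fatty acids into mitochondria, fell 3.98-fold. It read 0.97, 0.88 and -0.18 against 2.58, 2.45 and 2.61 (-1.99 ± 0.37 log2, adjusted p = 0.00339, limma), and it kept its call with any 1 fetal array left out. PLIN5, which binds mitochondria to fat droplets, fell 4.42-fold, and PPARA, a nuclear receptor that turns on fat oxidation, fell 2.03-fold. PLIN2, which coats fat droplets in many cells, rose 3.71-fold, from -1.75, -1.30 and -1.11 to 0.53, 0.35 and 0.63. Of the 7 genes of fatty acid uptake and oxidation tested, 2 fell, CPT1B and PPARA. PLIN5 was at 0.143 without infarct 3, 0.0869 without remote 1, 0.0821 without remote 3 and 0.0581 without infarct 2. PPARA was at 0.0612 without infarct 3 and 0.0543 without remote 1.

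The glucose list of 25 genes split, with 7 lower and 5 higher. The lower ones included muscle forms. SLC2A4, the insulin-sensitive glucose transporter, fell 4.27-fold (0.96, -0.56 and -1.13 against 2.26, 1.72 and 1.57, adjusted p = 0.041, limma), ENO3, the muscle enolase, fell 3.19-fold (1.74, 1.98 and 1.39 against 3.31, 3.52 and 3.30), and PYGM, the muscle glycogen phosphorylase, fell 2.34-fold. PYGB, the brain form of glycogen phosphorylase, fell 2.31-fold (adjusted p = 0.00279), and it was called with any 1 array left out. PYGL, the liver form, rose 2.85-fold. PGD, of the pentose phosphate route, rose 2.04-fold, and SLC2A5 rose as given above. SLC2A4 depended on most arrays, with adjusted p values from 0.0761 (without remote 2 or remote 3) through 0.104 (infarct 2) and 0.115 (remote 1) to 0.184 (infarct 3). ENO3 ran from 0.0612 (infarct 1) and 0.0628 (remote 1) through 0.0716 (remote 3) and 0.079 (remote 2) to 0.12 (infarct 3). PYGM was at 0.102 without infarct 3, 0.0688 without remote 2 and 0.0518 without remote 3.

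MYH7, the slow myosin heavy chain, read 2.90, 2.35 and 1.14 in the infarct and 3.48, 3.37 and 3.49 in remote muscle (-1.31 ± 0.65 log2, adjusted p = 0.174, limma). MB, myoglobin, read 6.26, 5.64 and 5.41 against 7.45, 6.92 and 7.43 (adjusted p = 0.0911). None of 5 sarcomere genes was called, and all 5 lay below 0. With the replicate number as a block 2 of the 5 were called lower, TPM1 (adjusted p = 0.0464, limma) and CRYAB (0.0493). The fit of the 6 arrays alone also called 2 and the deposited log2 values 1. Of the 3 heart muscle markers tested, MYH7, MB and PYGM, 1 fell. Their summed signal was 46.5 to 86.2 on the infarct arrays and 137 to 190 on the remote arrays. All 3 were well above background on all 6 arrays, so the infarct samples still held heart muscle RNA. GJA1, the gap junction protein connexin 43, fell 2.37-fold (1.62, 1.77 and 1.20 against 2.78, 2.85 and 2.70, adjusted p = 0.0115), passing to 0.0685 without infarct 3.

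Angiotensin receptors fell together. AGTR1, the receptor that raises vascular tone, read -0.82, -0.80 and -1.26 against 0.52, 0.53 and 0.44 (2.74-fold lower, adjusted p = 0.0103, limma). AGTR2, a receptor abundant in fetal tissue, read -4.09, -3.82 and -3.80 against -2.26, -2.22 and -2.74 (2.82-fold lower, adjusted p = 0.0123). Neither pair of groups overlapped. NR3C2, the mineralocorticoid receptor, fell 2.30-fold, and HSD11B1, which regenerates cortisol, rose 3.01-fold. Without infarct 3 the adjusted p was 0.0593 for AGTR1, 0.117 for NR3C2 and 0.0588 for HSD11B1. It was 0.0746 for NR3C2 without remote 2 and 0.09 for HSD11B1 without remote 3. In the prostaglandin list, against the rise of PTGS2 and of ALOX5AP (4.05-fold), the constitutive enzyme PTGS1 fell 2.46-fold, the receptor PTGER3 fell 2.69-fold and the synthase PTGDS fell 2.50-fold. Without infarct 3 these 3 were at 0.068, 0.0826 and 0.101, PTGER3 was at 0.0503 without remote 1, and PTGDS at 0.0661 without remote 3.

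The remaining genes among the 12 lowest were dim or less closely tied to muscle. TAC1, the precursor of substance P, fell 3.22-fold (-2.42, -2.34 and -2.90 against -1.36, -0.10 and -1.14), and BCKDHA, of branched-chain amino acid breakdown, fell 2.70-fold. NEUROG3, FBP2, GRIA2 and HOXA4 were not well above background on any infarct array and on only 1 remote array, remote 1. Set against the lowest signal well above background on each infarct array, their falls came to 1.02-fold, 1.83-fold, 1.62-fold and 1.96-fold. The remote means in these values include arrays that were not well above background, so they are not lower bounds. Each of these 6 genes lost its call when some single array was left out. For TAC1 the adjusted p was 0.0785 without infarct 3 and 0.0735 without remote 2. For BCKDHA it was 0.0992 without remote 1, 0.092 without infarct 3, 0.0919 without infarct 2 and 0.0853 without remote 3. Without remote 1, the only remote array that measured them, the adjusted p was 0.139 for NEUROG3, 0.0899 for FBP2, 0.241 for GRIA2 and 0.216 for HOXA4. Without infarct 3 it was 0.109, 0.0795, 0.114 and 0.0817 in the same order, and without infarct 2 it was 0.0927, 0.0547, 0.192 and 0.0537. Without remote 3 it was 0.0617 for NEUROG3, 0.0569 for GRIA2 and 0.0665 for HOXA4, and HOXA4 was at 0.175 without infarct 1. At the other end, ribosomal and translation genes barely moved: 1 of 24, EEF1D, fell, none rose, and the median was -0.03. EEF1D passed to 0.0644 without infarct 3 and 0.0603 without remote 1. Heat shock and endoplasmic reticulum stress genes gave no call of 8.

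Border zone arrays are no side of the contrast that called these probes, although they entered the filter on low signal and the model's spread. Over the 1193 probes called higher in the infarct, the median difference from the remote mean was 1.28, 1.26 and 1.62 log2 on the infarct arrays, 0.97 on border 1, 0.79 on border 2 and 0.14 on border 3. Over the 978 probes called lower it was -0.83, -0.83 and -1.09 on the infarct arrays, -0.55 on border 1, -0.40 on border 2 and -0.06 on border 3. Border 3 thus lay near the remote and sham arrays, which ran from -0.06 to 0.13 and from -0.13 to 0.03 in the same measures. The values of the infarct and remote arrays follow from how the probes were called and from using the remote mean. In IL6 the border arrays read -1.07, -2.51 and -6.27. The comparison with sham uses the same infarct arrays and so is not independent. In it 129 named genes rose (14.3%) and 55 fell (6.08%), 20.4% in all. CPT1B was at -1.79 log2 against sham and -1.99 against remote muscle. CDK1 was at 0.86 against sham (adjusted p = 0.107, limma) and CCNA2 at 0.50 (adjusted p = 0.424), and both were called against remote muscle as given above.

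**Figure D3:**
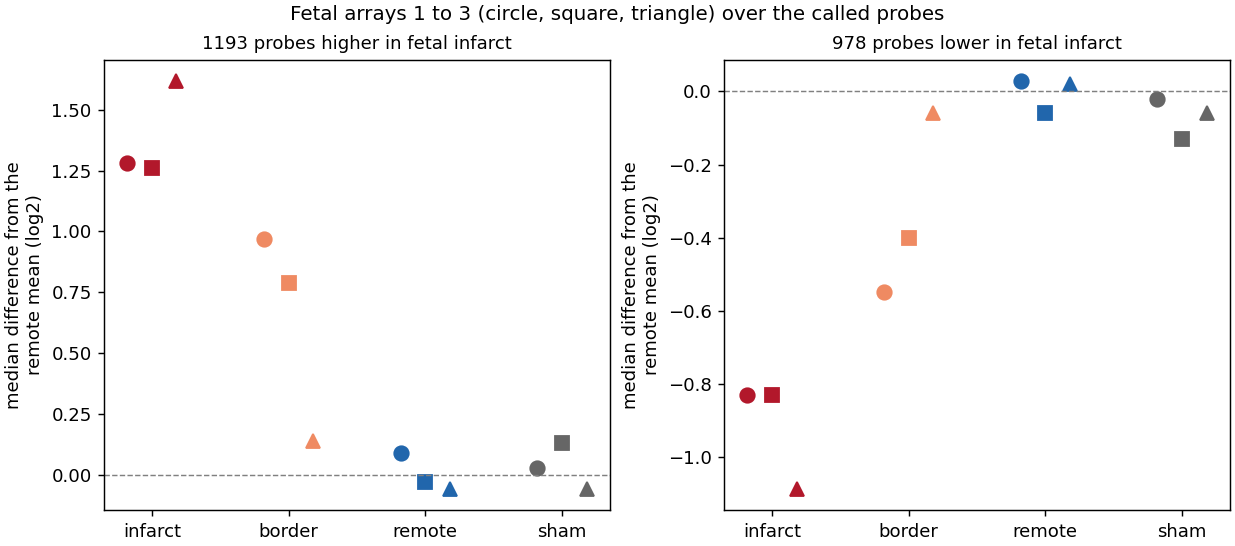
Median difference from the remote mean in log2 (vertical axis) on each of the 12 fetal arrays by group (horizontal axis), over the 1193 probes called higher and the 978 called lower in the infarct, with circle, square and triangle for arrays 1 to 3. Border 1 and border 2 lie toward the infarct arrays, at 0.97 and 0.79 over the higher probes, and border 3 lies at 0.14.

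The adolescent zones, which share no array with the fetal ones, were compared in the same model. There 270 of the 904 named genes rose (29.9%) and 222 fell (24.6%), 54.4% in all. The difference between ages was called for 184 genes (20.4%), 68 in the upward direction in adolescents (7.52%) and 116 in the downward direction (12.8%). Over all probes the shares were 8.88% upward and 12.4% downward, 21.3% in all. Of the 57 genes that fell in the fetal infarct, 37 had a called difference downward in adolescents and 2 upward. Of the 139 that rose in the fetal infarct, 21 had a called difference upward in adolescents and 3 downward. These are calls of the difference between ages, not of the adolescent comparison. A further 76 genes not called in the fetus were called lower in adolescents and in the difference. A difference between ages can come from either zone. The adolescent levels of both zones are given for MYH7 and CDK1, and for the other genes only the differences are printed.

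Muscle genes gave the widest gaps between ages. MYH7 read -3.78, -0.55 and -4.10 in the adolescent infarct and 4.90, 4.95 and 5.02 in adolescent remote muscle, a fall of -7.77 log2 against -1.31 in the fetus (difference -6.45 ± 0.92, adjusted p = 0.00024, limma). ENO3 was at -7.20 against -1.67 (adjusted p = 0.00014), SLC2A4 at -6.93 against -2.09 (0.0019), CPT1B at -5.66 against -1.99 (0.00025) and SLC25A4 at -4.92 against -1.26 (0.00014). In the oxidative phosphorylation list the summed scaled signal was 1360 to 1570 on adolescent remote arrays and 786 to 852 on fetal remote arrays. On the infarct arrays it was 167 to 197 in adolescents and 318 to 497 in the fetus. In that list 8 of 9 genes had a called difference between ages, all downward. The macrophage list had 1 of 12, TYROBP (difference -1.19), and the cytokine list had 0 of 13, and CTSS, for example, was at 3.43 log2 in adolescents against 3.33 in the fetus. With SEs of this size a failure to pass does not show equal responses.

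Cell division genes went the other way. CDK1 read 0.51, 0.67 and 0.37 in the adolescent infarct, beside 0.50, 0.51 and 0.47 in the fetal one, and -3.38, -4.18 and -4.89 in adolescent remote muscle against -0.86, -0.88 and -1.29 in the fetal remote arrays. The zone difference was 4.66 log2 in adolescents, and the fetal one is given above (difference 3.16 ± 0.51, adjusted p = 0.00043, limma). The infarct arrays of both ages lay between 0.37 and 0.67, while the adolescent remote arrays lay below all fetal remote arrays. Of the 12 genes of the list, 8 had a called difference, all upward, among them CCNA2 (3.12) and CCNB1 (2.15). PLAU, urokinase itself, was at 0.86 in the fetus (adjusted p = 0.0503, not called, and 0.0392 with the replicate number as a block) and at 3.18 in adolescents (difference 2.32 ± 0.41, adjusted p = 0.00093). PTGS1 fell in the fetus (-1.30) and was at 0.61 in adolescents (difference 1.91 ± 0.44, adjusted p = 0.00514).

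**Figure D4:**
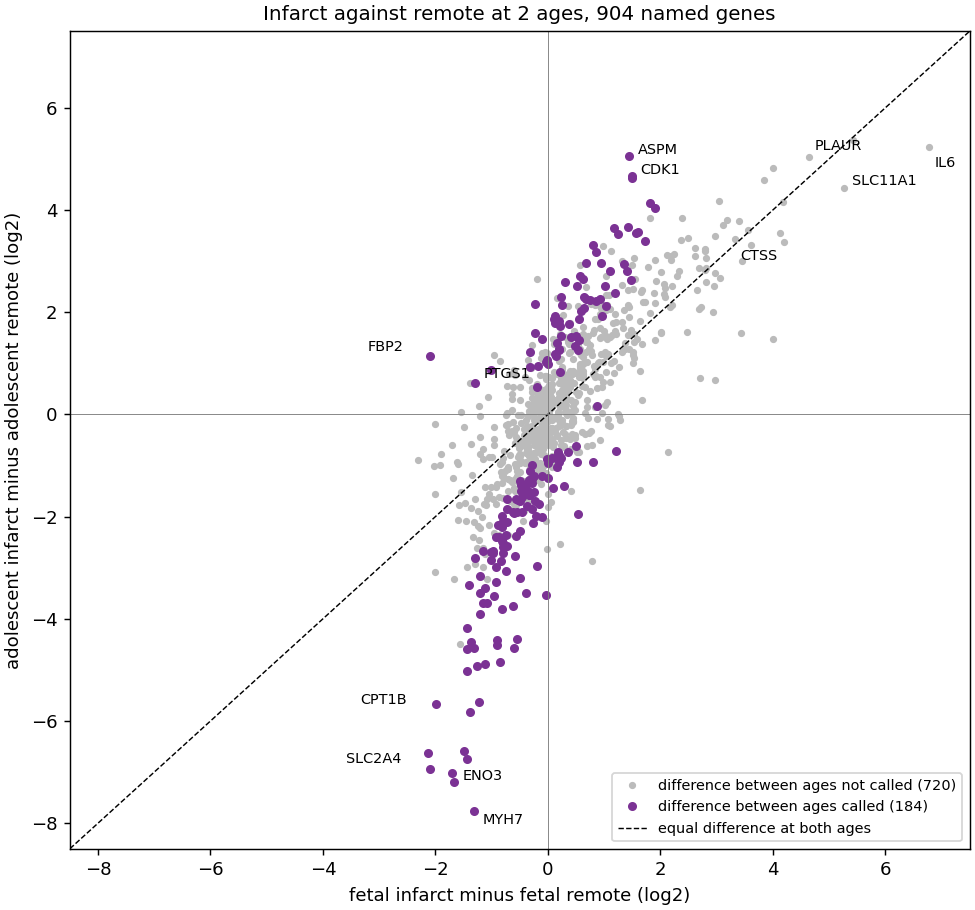
Infarct minus remote in log2 for the 904 named genes in the fetus (horizontal axis) and the adolescent (vertical axis), coloured where the difference between ages had an adjusted p under 0.05 (184 genes), with a dashed line of equal difference. MYH7, ENO3 and CPT1B lie far below the line, CDK1 and ASPM above it, and CTSS, PLAUR and SLC11A1 near it.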

How the data were processed

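RNA of ventricular tissue was labelled with Cy3 and hybridised to Agilent sheep arrays, per the labels' protocols. The authors deposited each array's scanner output (Agilent Feature Extraction, per the file headers), whose processed signal is an intensity already background-subtracted, and a table of log2 values of 8411 probes that follow the median signal (rank correlation at least 0.998 on each array). The medians of its columns ran from 9.267 to 9.305 and its slope against log2 processed signal from 0.677 to 0.781. The reason for that narrower scale is unknown. The submitters' processing notes name limma. The genome build and annotation are not given in the sources used here, so no coordinates are printed. Control spots and outlier flags were left out, spots of a probe were averaged, and log2 processed signal was scaled by each array's 75th percentile. Probes had to be well above background on 2 or more arrays in any group, which kept 12451 of 15008. They were tested with limma 3.58.1 in R 4.3.3, in 1 model of 23 arrays and 8 groups, with Benjamini-Hochberg adjustment. The scripts were tested on simulated data.

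Names came from the array's own columns and from RefSeq accessions; 1087 names cover 1772 probes. The members, gene lists and named genes were chosen with earlier results of these data known. Named genes are the 12 highest and 12 lowest past the threshold with 1 sign in all 3 same-numbered pairs, up to 5 members of each list, the 5 highest and 5 lowest in the difference between ages, and a fixed set, of which ACTA2, TNNT2, ATP2A2, RYR2 and VCAM1 had no tested probe. Genes mentioned beyond these were chosen after their values were seen. Replicate numbers coincide with slides. Deviations from the group means of same-numbered infarct and remote arrays correlated at 0.223, 0.315 and 0.156 across probes. Differently numbered arrays correlated at -0.297 to 0.072. A shared fetus and a shared slide cannot be told apart here. Alternatives were normexp background correction (offset 50), quantile normalization, the deposited log2 values, no background correction, other filters, smaller fits, the replicate block and leaving out each array.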

Additional observations from a re-analysis of the deposited data

Results flagged for a closer look

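Each result here is a gene whose infarct minus remote difference was not the same at the 2 ages by the model's own test of that difference (adolescent minus fetal, log2, limma, adjusted p under 0.05). Among named genes 116 differences were called downward and 68 upward, and only part of them are listed here. The downward ones listed were MYH7 (-6.45), ENO3 (-5.53), PPARGC1A (-5.30), PRKAA2 (-5.30), MB (-5.09), SLC2A4 (-4.83), PLIN5 (-4.49), CPT1B (-3.67) and BCKDHA (-2.74). PPARGC1A, a master regulator of mitochondria, and PRKAA2, the muscle AMP-activated kinase, were not called in the fetus alone (-1.71 and -1.44) and were above background on only 1 adolescent infarct array. The upward ones listed were ASPM (3.60), FBP2 (3.25), CDK1 (3.16), CCNA2 (3.12), LOC100191065 (2.51), CCNB1 (2.15) and PCNA (2.01). FBP2, a muscle form of fructose bisphosphatase, was above background on 1 of 3 fetal remote arrays, 0 of 3 fetal infarct arrays and 0 of 3 adolescent remote arrays, so the size of its difference rests on values below background.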

How the results depend on the processing

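Of 2171 probes called in the fetal comparison, the count was 140 with normexp in the full model (126 higher and 14 lower) but 1710 with normexp in the 6 arrays alone. With normexp, the 6 arrays lay 0.2 to 0.3 log2 from their group means, while some arrays outside the comparison lay up to 1.16 away. The model shares 1 spread over both, and whether this lowered the count was not tested. With only the 6 arrays the count was 1414, and with the replicate block in those 6 it was 984. Leaving out 1 array gave 729 to 1764, the lowest without fetal infarct 3. The replicate block in the full model gave 2453. Among the 904 named genes it ended 4 calls, that of IL2RA among them, added 14 higher and 13 lower calls, PLAU among the higher, and changed no other call. With quantile normalization (2601), the deposited log2 values (2418 of 8411) and the other filters the counts stayed within 1.5 times. The probes tested differed, at 12451 in the main fit, 15008 with no filter and 10286 well above background on all 6 arrays. As a share of the probes tested, the deposited values gave more calls than the main fit. The difference between ages had 2647 calls, 269 with normexp, and 2042 to 2570 with 1 array left out. Of the 196 named genes called, 122 lost the call in at least 1 fit without 1 fetal array. With normexp, in both fits, the dim genes AQP4 (0.06), HOXA4 (0.06) and NEUROG3 (0.08) changed sign; the cause was not tested. The fits with no background correction, and the fits of the 6 arrays with the block or normexp, were chosen after seeing the data.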
